A study of Homo sapiens with 8 samples.

Results

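The comparison sets the truncated GATA3 form TR1 against wild-type GATA3 in T47D cells, an established luminal human breast cancer line that carries estrogen and progesterone receptors. It rests on 4 of the series' 8 libraries, 2 from cells with the HA-GATA3 TR1 plasmid and 2 from cells with the HA-GATA3 wt plasmid, HA being a short peptide tag. Cells with a control plasmid and cells with a second truncated form, TR2, gave 2 libraries each, and their values are set beside the results. The labels give no dose or time, do not say where the proteins are truncated, and do not say whether replicate libraries came from separate cultures, so that p-values measure only the spread between these libraries. Of 28859 genes in the table, 14881 reached a normalized count of 10 in at least 2 libraries and were tested. All levels below are the authors' normalized counts, and each log2 fold change is TR1 minus wild type on the log2(count + 1) scale, which understates the change of genes with few reads.

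GATA3 is a zinc-finger transcription factor that binds DNA at the core letters GATA and holds breast epithelium in its luminal state, together with the estrogen receptor and the pioneer factor FOXA1. Truncating mutations of its gene are frequent in luminal breast cancers, and many affect the zinc fingers or the C-terminal end. The title of the study raises a mesenchymal transformation by such mutations, which makes epithelial, mesenchymal and luminal genes the first to look at.

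The wild-type libraries held 16620794 and 14115695 reads on genes, the TR1 libraries 16970383 and 19572394, and the other 4 between 13292861 and 18154045. Mitochondrial transcripts took between 7.11% and 8.50% of each library. The luminal markers KRT8, KRT18, KRT19, EPCAM and CDH1 were abundant in every library, and 11 markers of leukocytes and endothelium summed to between 5.71 and 16.5 normalized counts per library, with at most 8 reads for any of them. The TR1 libraries differed from each other more than any other pair: over 10379 genes with a geometric mean above 100, the replicates' log2 differences had an SD of 0.381 for TR1, 0.168 for the control plasmid, 0.116 for wild type and 0.133 for TR2. Of these genes, 493 stood at least 2-fold apart between the TR1 libraries, 2 between the control libraries and 0 within wild type or TR2. For that reason the value in each TR1 library is given throughout.

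GATA3 itself (ENSG00000107485, chromosome 10, 8045378 to 8075203, GRCh38) was counted at 13555 and 13833 in the wild-type libraries and at 9506 and 8638 in the TR1 libraries. Both TR1 libraries lay below every control and wild-type library, the control libraries standing at 13726 and 12676, and the TR2 libraries at 10235 and 10588. GATA3 was 1.51-fold lower with TR1 than with wild type (log2 fold change -0.60 ± 0.07 SE, limma adjusted p = 0.000539). The call held under all alternatives run, with adjusted p-values between 4.4e-06 and 0.012. The counts join transcripts of the plasmid and of the cells' own gene, so that they do not show how much of either was present.

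Limma called 2229 of 14881 genes between TR1 and wild type (15.0%), 1131 higher with TR1 (7.60%) and 1098 lower (7.38%). Every count over a gene list below is to be read against these shares. The median log2 fold change over all genes tested was 0.02. At least 2-fold changes were called for 663 genes (4.46%), 406 higher and 257 lower. The TR1 libraries were both above or both below the wild-type libraries for 7851 genes (52.8%), a much larger share than the share called. With 2 libraries a group, many genes would part in this way without any difference between the groups. Before adjustment, 4145 genes had p below 0.05. The fit takes 1 spread for all groups, although the TR1 pair was the widest. With library weights by group 1434 genes were called, and with only the TR1 and wild-type libraries in the fit 1042. The count of calls fell to 927 when wild-type replicate 1 was left out and to 859 when replicate 2 was, and it was 4754 without TR1 replicate 1. Under every alternative and with every library left out in turn, 719 genes kept their call and direction, 409 of them at least 2-fold changed.

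Set against the wild-type mean one library at a time, TR1 library 1 had 551 genes at least 2-fold higher and 423 at least 2-fold lower, and TR1 library 2 had 792 and 373. Both TR1 libraries were at least 2-fold higher for 420 genes and at least 2-fold lower for 232, and only 2 genes of all tested were at least 2-fold away in opposite directions.

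**Figure D1:**
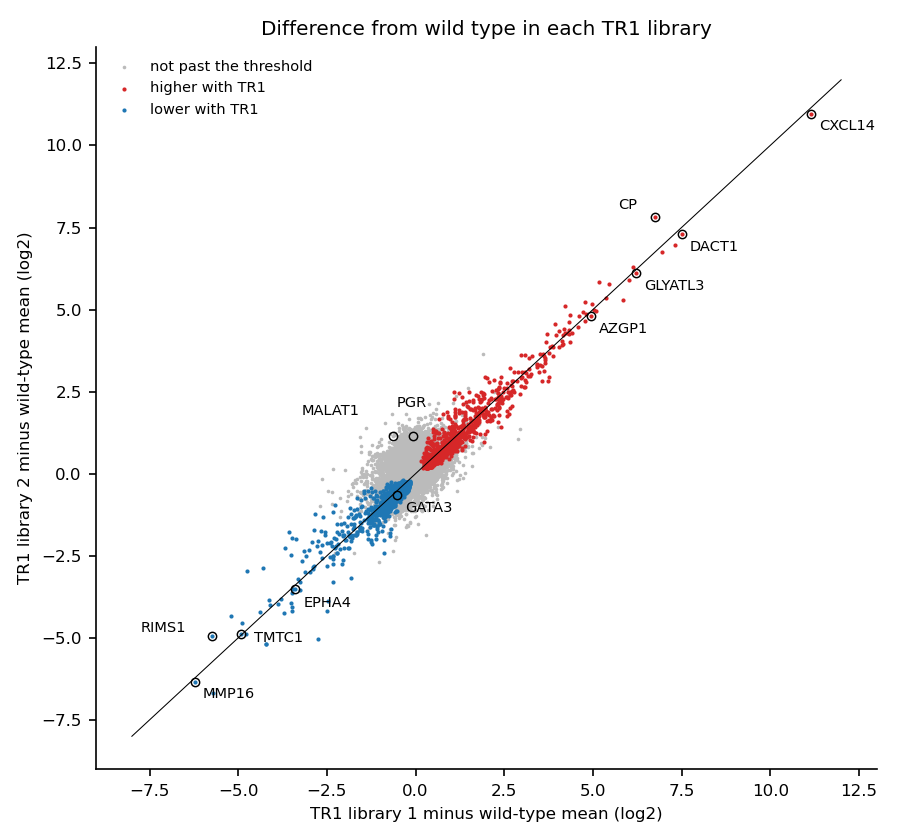
Each point is 1 of the 14881 genes tested, at its log2 difference from the wild-type mean in TR1 library 1 (horizontal axis) and TR1 library 2 (vertical axis), red where called higher and blue where called lower with TR1. Genes with large changes, such as CXCL14, DACT1, MMP16 and TMTC1, lie near the diagonal, whereas PGR and MALAT1 were above wild type in library 2 alone.

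The largest rise was that of CXCL14, which encodes a chemokine of epithelia (chromosome 5, 135570679 to 135579279). It had 0 reads in both wild-type libraries and 2355 and 2387 reads in the TR1 libraries, or 2283 and 1997 normalized counts. It was thus at least 678-fold higher with TR1, against a floor of 3 reads per library (limma adjusted p = 9.18e-09). The control libraries had 12.9 and 15.8 and the TR2 libraries 203 and 192, between wild type and TR1.

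Genes that act on Wnt signalling were among the largest rises. DACT1 (chromosome 14, 58633967 to 58648321), whose protein binds Dishevelled and modulates Wnt signalling, had 0 wild-type reads and 180.3 and 156 normalized counts with TR1, at least 53.3-fold higher (limma adjusted p = 1.38e-05). SFRP1, a secreted Wnt antagonist, had 0 wild-type reads and 123 and 107 with TR1, at least 36.5-fold higher (adjusted p = 5.01e-05). Both genes were near 0 in the control libraries as well, with 0 and 1.22 each. With TR2, DACT1 reached 17.1 and 19.5 and SFRP1 4.49 and 2.78.

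CP, which encodes the copper-carrying ferroxidase ceruloplasmin (chromosome 3, 149162410 to 149222055), had 2.89 and 4.57 with wild type and 504 and 1053 with TR1 (log2 fold change 7.29 ± 0.32, limma adjusted p = 3e-06). Its TR1 values differed from each other by a factor of about 2.09, but both were far above wild type, and the control libraries lay between at 74.1 and 68.3. The TR2 libraries of CP, at 451 and 532, stood near TR1 library 1. GLYATL3, a gene of the glycine N-acyltransferase family, rose from 4.82 and 6.85 to 497 and 465 (6.16 ± 0.21, adjusted p = 7.16e-07). The control plasmid gave 39.7 and 50 and TR2 117 and 135 for GLYATL3, between wild type and TR1. PLEKHS1, a pleckstrin-domain gene, rose from 3.85 and 2.28 to 129.9 and 125 (5.01 ± 0.27, adjusted p = 8.29e-06).

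Matrix genes made up much of the rest of the 12 largest rises. COL27A1, a fibrillar collagen gene, rose from 6.74 and 1.14 to 287 and 322 (log2 fold change 6.23 ± 0.55, limma adjusted p = 0.00016). MXRA5, which encodes a large matrix-associated protein, had 1 wild-type read and 460 TR1 reads in all, or 395 times as many after normalization, with 95% counting limits of 70.6 and 15652 (adjusted p = 7.4e-06). The small proteoglycan gene DCN had 0 reads with wild type and 64 and 58.6 normalized counts with TR1, at least 19.4-fold higher (adjusted p = 7.01e-05). TGFBI, a matrix protein gene induced by TGF-beta, had 2 wild-type reads and 56.2 and 64.4 with TR1, a ratio of 58 (15.8 to 484, adjusted p = 0.000416). In the control libraries MXRA5 (14 and 13.4), TGFBI (7.52 and 13.4) and COL27A1 (27.9 and 12.2) were above both wild-type libraries and below both TR1 libraries, and DCN was at 0. The other 2 of these 12 genes were RIMS2, of the presynaptic RIM family, with 1 wild-type read and 60.1 and 76.1 with TR1 (ratio 132, 23.3 to 5228), and the glycoprotein hormone gene STC1, with 1 wild-type read and 59.1 and 59.4 with TR1 (ratio 113, 20 to 4515). These bulk values do not tell more RNA per cell from more cells that express a gene.

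In the other direction, MMP16, which encodes a membrane-type matrix metalloproteinase, was counted at 153 and 142 with wild type and at 0.97 and 0.84 with TR1, where each library held 1 read. Wild type exceeded TR1 by a ratio of 165, within counting limits of 45.1 and 1366 (limma adjusted p = 1.83e-05). The control libraries held 3.22 and 2.44 and the TR2 libraries 0, so that wild type alone stood high. AOC1, the diamine oxidase gene, was at 116 and 90.2 with wild type and had 1 TR1 read in all, a ratio of 231 (41.1 to 9189, adjusted p = 0.000466), and in no control or TR2 library did it exceed 2.15. EGR3, an immediate early zinc-finger gene that responds to estrogen, was at 52 and 54.8 with wild type and had 2 TR1 reads in all, a ratio of 59.3 (16 to 497, adjusted p = 0.00055). Its control values were 2.15 and 2.44.

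For the other 9 of the 12 largest falls, the TR1 libraries held more than 3 reads in all. RIMS1 (chromosome 6, 71886703 to 72403143), a paralog of RIMS2, fell from 318 and 310.4 to 4.85 and 9.2 (log2 fold change -5.35 ± 0.27, limma adjusted p = 5.35e-06). TMTC1, an endoplasmic reticulum O-mannosyltransferase gene (chromosome 12, 29500840 to 29784759), fell from 1399 and 1365 to 44.6 and 46, 29.9-fold (-4.90 ± 0.10, adjusted p = 2.48e-08). For both genes the control libraries stood between, at 73 and 64.6 for RIMS1 and at 646 and 645 for TMTC1. ADAMTS15, a secreted metalloprotease gene, fell from 408 and 463 to 13.6 and 17.6 (-4.73 ± 0.19), and PLXDC2, a plexin-domain gene, from 360.3 and 325 to 15.5 and 17.6 (-4.29 ± 0.18). Co-receptors of neurotrophic factors were among them: GFRA1, which binds GDNF together with RET, fell from 408 and 458 to 32 and 21.8 (-3.98 ± 0.21), and CNTFR, the ciliary neurotrophic factor receptor subunit, from 183 and 159 to 10.7 and 10 (-3.92 ± 0.18). The heparan sulfate sulfotransferase gene HS6ST3 fell from 199 and 235 to 18.4 and 10.9 (-3.84 ± 0.32) and MS4A15 from 123 and 148 to 6.79 and 8.37, 16-fold. EPB41L3, a membrane-cytoskeleton linker gene, fell from 54 and 50.2 to 0.97 and 5.86 (-3.85 ± 0.55, adjusted p = 0.00221). Each of the 24 genes with the largest rises and falls kept its call under all alternatives that tested it and without each library.

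**Figure D2:**
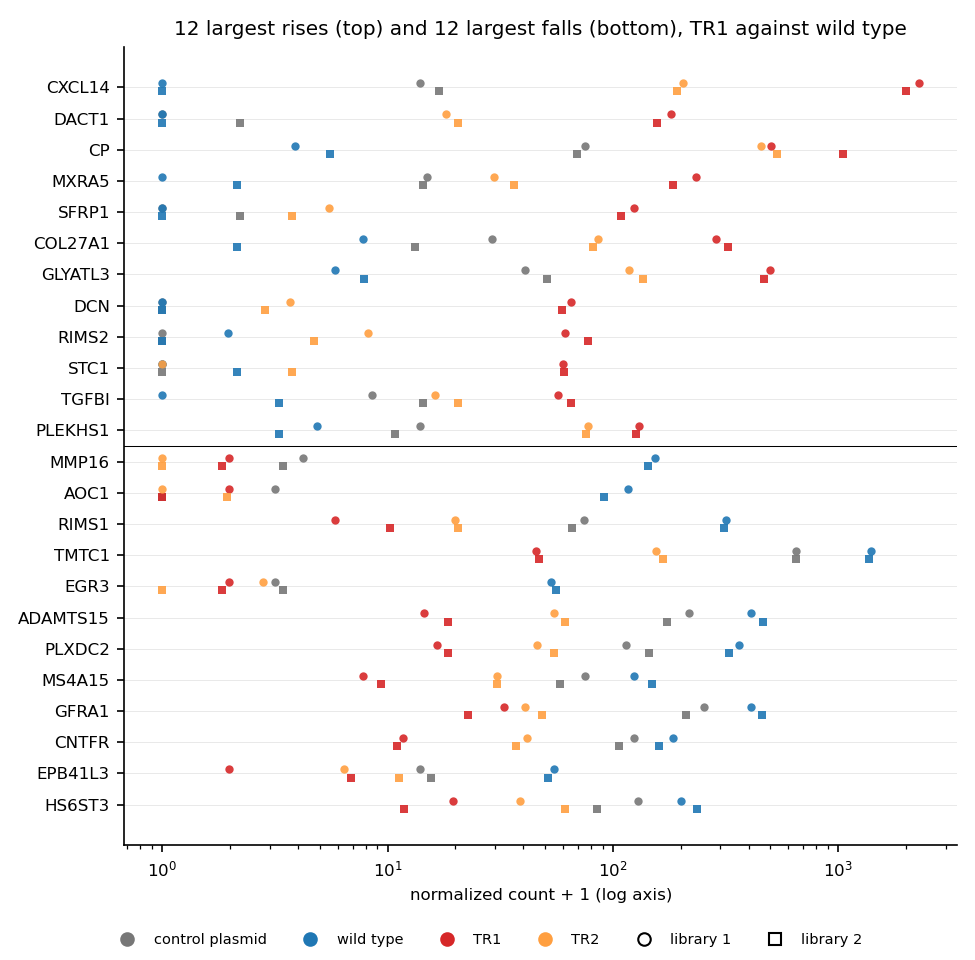
Normalized count plus 1 on a log axis for the 12 largest rises (top) and 12 largest falls (bottom) between TR1 and wild type, with every library shown as a circle (library 1) or square (library 2) coloured by plasmid. TR1 and wild-type points do not overlap for any gene shown, and for MMP16, AOC1 and EGR3 the control points lie near the TR1 points rather than between.

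Among abundant genes, the largest falls in mean level past the threshold were TAGLN2, GATA3, XBP1 and FKBP4. TAGLN2, an actin-binding gene, fell from 12926 and 13031 to 8616 and 7897 (log2 fold change -0.65 ± 0.07, limma adjusted p = 0.000341). The HSP90 co-chaperone gene FKBP4, part of steroid receptor complexes, fell from 12055 and 11630.5 to 7745 and 7451 (-0.64 ± 0.07, adjusted p = 0.000339). KRT8, a keratin of simple epithelium, rose from 49913 and 49820.2 to 69040.3 and 63655 (0.41 ± 0.07, adjusted p = 0.00383). XBP1 lost its call without wild-type replicate 1 (adjusted p = 0.118) or 2 (0.173) and with median centring (0.144). The other largest rises in level were mitochondrial (MT-RNR2, MT-CYB and MT-ND2), of which MT-ND2 turned to lower under quantile normalization (-0.06, adjusted p = 0.64). Of 13 mitochondrially encoded genes, 3 rose and 0 fell (23.1% called, against 15.0% of all genes called and 7.60% called higher). MT-ND1 was among the rises, from 23286 and 22851 to 31340.0 and 35327 (0.53 ± 0.07, adjusted p = 0.00162). Under quantile normalization 1 rose and 1 fell. Fewer rose without either wild-type replicate, and more without TR1 replicate 1. MT-RNR2 lost its call without wild-type replicate 1 (adjusted p = 0.144) or 2 (0.16) and without TR2 replicate 1 (0.0526) or 2 (0.0522). MT-CYB lost it without wild-type replicate 1 (0.112) or 2 (0.122).

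Of 22 luminal transcription factor genes tested, 7 rose and 6 fell with TR1, and 9 did not pass (59.1% called, against 15.0% of all genes). The epithelial ETS factors EHF and ELF3 were among the rises. EHF had 177 and 176 with wild type and 825 and 1277 with TR1 (log2 fold change 2.53 ± 0.20, limma adjusted p = 7.87e-05), and ELF3 rose from 487 and 479 to 1039 and 915 (1.01 ± 0.09, adjusted p = 0.000127). LMO4, a LIM-only cofactor of transcription complexes, rose from 1001 and 1019 to 3722 and 3670.0 (1.87 ± 0.06, adjusted p = 7.16e-07). On the other side, SPDEF, another ETS factor of luminal cells, fell from 4169.7 and 4333 to 2706 and 2338 (-0.76 ± 0.08, adjusted p = 0.000331), and the AP-2 factor TFAP2A fell from 3183 and 3279 to 1620.1 and 1525 (-1.04 ± 0.09, adjusted p = 0.000118). Factors of one family thus moved in both directions. Without wild-type replicate 1, 3 of the 22 fell.

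The estrogen receptor gene ESR1 was at 2804 and 2796 with wild type and at 4035 and 3871 with TR1, with no overlap (0.50 ± 0.08, limma adjusted p = 0.00319). The control libraries lay between, at 3437 and 3272, and the TR2 libraries stood at 3358 and 3872. FOXA1 was at 7553 and 8026 with wild type and 6984 and 6629.8 with TR1 and did not pass (-0.19 ± 0.07, adjusted p = 0.0956). Without TR1 replicate 1 its log2 fold change was -0.23. The progesterone receptor gene PGR stood at 8305 and 8191 with wild type, and at 7826 in TR1 library 1 but 18201 in TR1 library 2. It did not pass (0.53 ± 0.30, adjusted p = 0.297). Without TR1 replicate 1 it was higher by 1.14 on the log2 scale, in a fit that leaves out the gap between the TR1 libraries. Among 18 progestin response genes, 3 rose and 2 fell (27.8% called, against 15.0% of all genes). S100P, a calcium-binding protein gene, rose from 14.4 and 10.3 to 82.4 and 72.8 (2.57 ± 0.33, adjusted p = 0.00113). The lower members were MT2A and FKBP5, and without wild-type replicate 2 neither was called, MT2A having an adjusted p of 0.0697 and FKBP5 0.12. FKBP5 also lost its call without wild-type replicate 1 (0.259) and without either control (0.0607 for both) or TR2 replicate (0.0706 and 0.0701).

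Of 31 estrogen response genes, 13 fell and 6 rose (61.3% called, against 15.0% of all genes). ESR1 and the larger part of the called members thus differed in direction. XBP1 and EGR3 stand in other groups too. AREG, an EGF-type growth factor gene, fell from 722 and 716 to 240.4 and 216 (log2 fold change -1.65 ± 0.10, limma adjusted p = 1.31e-05). CCND1 and MYC were lower by log2 changes of -0.51 (adjusted p = 0.0023) and -0.60 (0.0073). MYC lost its call without wild-type replicate 1 (adjusted p = 0.0752) or 2 (0.0548). WISP2, a matricellular CCN family gene, rose from 41.4 and 41.1 to 223 and 206 (2.35 ± 0.16, adjusted p = 2.88e-05). The median of the list was -0.07, near that of all genes. Without wild-type replicate 1, 7 fell and 3 rose, and without wild-type replicate 2, 5 fell and 4 rose.

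Of 17 mesenchymal genes tested, 7 rose and 4 fell (64.7% called, against 15.0% of all genes). Another 7 in the table were under the filter on low values, ZEB1, TWIST1 and CDH2 among them. VIM, the vimentin gene, rose from 3.85 and 9.13 to 44.6 and 36 (log2 fold change 2.55 ± 0.39, limma adjusted p = 0.00316), which is still a low count for these libraries. COL3A1, a fibrillar collagen gene, had 0 wild-type reads and 21 and 22 TR1 reads, at least 6.14-fold higher (adjusted p = 0.000539). SPARC, a collagen-binding matrix gene, had 2 wild-type reads and 46 TR1 reads, a ratio of 19.8 (5.17 to 168, adjusted p = 0.00379), and MMP2, a gelatinase gene, 1 and 28, a ratio of 24.1 (3.98 to 984, adjusted p = 0.00557). Smooth muscle actin ACTA2 was at 804 and 912 with wild type and 3342 and 3001 with TR1 (1.89 ± 0.09, adjusted p = 5.35e-06). The collagen gene COL1A1 fell instead, from 392 and 423 to 236 and 205 (-0.89 ± 0.11, adjusted p = 0.000938), and CD44 fell by 0.48 on the log2 scale (adjusted p = 0.003). FN1, the fibronectin gene, was at 996 and 1060.2 with wild type and 847 and 736 with TR1 (-0.38 ± 0.10, adjusted p = 0.0314). Its control libraries, at 679 and 609, and its TR2 libraries, at 572 and 582, lay below both TR1 libraries, so that wild type stood high. FN1 no longer passed when wild-type replicate 1 (adjusted p = 0.118) or 2 (0.222) was left out, nor without TR2 replicate 1 or 2 (0.0661 and 0.0659). Over the list, 2 genes fell without either wild-type replicate.

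Most epithelial junction genes did not pass. CDH1, the E-cadherin gene, was at 8728 and 8821 with wild type and 8377 and 7974 with TR1 and did not pass (-0.10 ± 0.06, limma adjusted p = 0.356). Of 28 junction and polarity genes, 3 rose and 4 fell (25.0% called, against 15.0% of all genes), the claudin genes CLDN1 (345 and 339 to 535 and 519) and CLDN7 (1639.7 and 1754 to 2701 and 2515) and the P-cadherin gene CDH3 (1798 and 1832 to 2885 and 2574) being higher by 0.62, 0.62 and 0.59 on the log2 scale. CGN, the cingulin gene of tight junctions, fell from 2080.0 and 2173 to 1610.4 and 1422 (-0.49 ± 0.07, adjusted p = 0.00309). Leaving out TR1 replicate 1 gave 6 rises and leaving out replicate 2 gave 7, and 1 gene fell without either wild-type replicate. CLDN1 had control values of 1451 and 1418, above all libraries of the other plasmids, so that both wild type and TR1 were below the control.

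Keratins and basal genes included larger rises. KRT15, a keratin of basal and progenitor cells, rose from 59.7 and 60.5 to 319 and 284 (log2 fold change 2.30 ± 0.22, limma adjusted p = 0.000234), and KRT19 from 27339 and 28376 to 39935 and 35853 (0.44 ± 0.07, adjusted p = 0.00315). Of 9 keratin genes tested, 4 rose and 2 fell (66.7% called), the falls being lost without either wild-type replicate, and neither KRT5 nor KRT14 exceeded 3 reads per library. Of 15 basal and myoepithelial genes tested, 6 rose and 2 fell (53.3% called), and 0 fell without either wild-type replicate and 1 without either control replicate or TR2 replicate 2. LAMB3, a laminin-332 chain gene, rose from 291 and 319.6 to 1016 and 908 (1.65 ± 0.09, adjusted p = 1.19e-05), and TRIM29 from 310.2 and 305 to 763 and 701 (1.25 ± 0.09, adjusted p = 5.49e-05). TAGLN, which encodes another smooth muscle protein, was at a log2 fold change of -0.61 (adjusted p = 0.049) while ACTA2 was higher. The TAGLN call was lost without either control replicate (0.0738 and 0.0743), either wild-type replicate (0.25 and 0.156) or TR1 replicate 2 (0.0614).

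Markers of other cells were read beside these groups. Summed over 10 defining basal and myoepithelial markers, the level was 1244 and 1327 with wild type and 3729 and 3348 with TR1, most of it ACTA2, with KRT5 and KRT14 at or near 0. Summed over 10 fibroblast markers, it was 470.1 and 496 with wild type and 400.4 and 407 with TR1. Of them, 2 were at 0 in every TR1 and wild-type library. DCN and COL3A1 rose, COL1A1 fell, LUM had 0 wild-type reads and 8 and 33 TR1 reads, and COL1A2 had 0 reads in all 8 libraries. The part of these markers in the matrix and mesenchymal results was not tested.

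TGF-beta and activin genes included ligands that moved in opposite directions. Of 24 tested, 9 rose and 4 fell (54.2% called). INHBA, which encodes the subunit of activin A, had 1 wild-type read, and TR1 brought it to 38.8 and 54.4, a ratio of 90.3 (15.9 to 3599, limma adjusted p = 0.00147). INHBB, the subunit of activin B, was lower (-1.04, adjusted p = 7.9e-05). Likewise TGFB2 was higher (2.59, adjusted p = 0.0039) and TGFB3 lower (-0.93, adjusted p = 6.9e-05), and BMP7 was higher (2.83, adjusted p = 0.0119) and BMP4 lower (-1.20, adjusted p = 0.00012). BMP7 had few reads, 8 and 1 with wild type and 31 and 35 with TR1. Its call was lost with only the TR1 and wild-type libraries in the fit (adjusted p = 0.0667) and with library weights by group (0.0587). PMEPA1, a feedback target, was higher by 1.37 (adjusted p = 8.3e-05), whereas SMAD7 and the ID genes ID1, ID2 and ID3 did not pass. The type II receptor gene TGFBR2 had 3 wild-type and 34 TR1 reads, a ratio of 9.74 (3.06 to 49.6, adjusted p = 0.0132), and it lost its call without wild-type replicate 1 (0.0568) or 2 (0.0974) or TR1 replicate 1 (0.0536). Over the list, 5 rose without either wild-type replicate.

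Beyond DACT1 and SFRP1, the Wnt list of 19 tested genes held 1 other rise and 3 falls (31.6% called, against 15.0% of all genes). DKK1, a secreted Wnt antagonist, rose from 57.8 and 54.8 to 162 and 147 (log2 fold change 1.44 ± 0.13, limma adjusted p = 0.00016), with control values of 193 and 180.4 above those of TR1. RNF43, a Wnt-induced ubiquitin ligase that removes Frizzled receptors, fell from 261 and 252 to 33.9 and 35.1 (-2.86 ± 0.17, adjusted p = 1.69e-05), and the receptor gene FZD4 was lower (-0.60, adjusted p = 0.00077). AXIN2, a common readout of the pathway, did not pass (0.73, adjusted p = 0.068). The falls numbered 6 without TR1 replicate 1, and the rises 5 without TR1 replicate 2.

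Guidance genes changed in both directions. Of 15 ephrin receptor and ephrin genes tested, 3 rose and 3 fell (40.0% called), and 1 fell without either wild-type replicate, while 5 rose without TR1 replicate 2. EPHA4 (chromosome 2, 221418027 to 221574202) fell from 730.3 and 709.9 to 67.9 and 62.7 (log2 fold change -3.44 ± 0.10, limma adjusted p = 2.03e-07), and its highest level was in the control libraries, at 971 and 893. EPHA2 rose from 254 and 306 to 535 and 467 (0.84 ± 0.12, adjusted p = 0.00226). Of 26 semaphorin, netrin, slit and receptor genes, 8 rose and 4 fell (46.2% called), and the netrin gene NTN4 led, from 145 and 139 to 1146 and 1229.8 (3.06 ± 0.15, adjusted p = 5.09e-06). The semaphorin genes SEMA3E (41.4 and 57.1 to 188 and 243) and SEMA3B (1.17, adjusted p = 0.00064) were higher and the plexin gene PLXND1, a receptor for SEMA3E, was lower (-1.35, adjusted p = 7.1e-05). Without wild-type replicate 1, 5 rose and 2 fell, and without wild-type replicate 2 also 2 fell.

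Every called interferon-stimulated gene was higher with TR1. Of 30 tested, 16 rose and 0 fell (53.3% higher, against 7.60% of all genes), and the median log2 fold change was 0.75 against 0.02 over all genes. ISG15, a ubiquitin-like modifier, rose from 38.5 and 29.7 to 143 and 127 (1.97 ± 0.21, limma adjusted p = 0.000424). OASL, a 2'-5'-oligoadenylate synthetase-like gene, rose from 6.74 and 10.3 to 49.5 and 40.2 (2.29 ± 0.30, adjusted p = 0.00129), and IFIT1, an RNA-binding antiviral gene, from 17.3 and 12.6 to 52.4 and 81.2 (2.07 ± 0.32, adjusted p = 0.00337). IRF1 was higher (1.43, adjusted p = 0.0034), as was IFI6 (1.95, adjusted p = 1.5e-05), but STAT2 (0.06, adjusted p = 0.62) and IRF9 (0.60, 0.48) did not pass. Control values of ISG15 (60.1 and 47.5), OASL (17.2 and 21.9) and IFIT1 (19.3 and 31.7) lay above wild type and below TR1. Without wild-type replicate 2, 10 rose, and without TR1 replicate 1, 20 rose and 1 fell. Of 17 class I antigen presentation genes, 4 rose and 0 fell (23.5% higher, against 7.60% of all genes), all of them HLA genes with near-identical relatives between which reads can be split. HLA-F rose from 63.6 and 59.4 to 177 and 137 (1.33 ± 0.20, adjusted p = 0.00291), and 2 genes of the list rose without wild-type replicate 2 and 7 without TR1 replicate 2.

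Retinoic acid, made from retinal by ALDH1A enzymes, activates RAR receptors and is degraded by CYP26 enzymes, which are themselves induced by it. Of 14 genes of this pathway tested, 6 rose (42.9%, against 7.60% of all genes) and 1 fell. The receptor gene RARB rose from 5.78 and 5.71 to 123 and 129.7 (log2 fold change 4.24 ± 0.23, limma adjusted p = 9.06e-06), with 15 and 11 in the control and 58.4 and 62.2 with TR2. CYP26A1 had 1 wild-type read, and TR1 brought it to 46.5 and 42.7, a ratio of 85.1 (14.9 to 3395, adjusted p = 0.000764). TGM2, a transglutaminase gene induced by retinoids, rose from 5.78 and 2.28 to 83.4 and 71.9 (4.06 ± 0.39, adjusted p = 0.000251). The synthesis enzyme gene ALDH1A3 was higher by 2.06 (adjusted p = 4.6e-06) and DHRS3, which reduces retinal, by 1.28 (7.9e-05). CRABP1, a cellular retinoic acid binding protein, fell from 86.7 and 91.3 to 13.6 and 14.2 (-2.59 ± 0.21, adjusted p = 8.96e-05). The receptor genes RARA (-0.07, adjusted p = 0.56), RARG (0.20, 0.11) and RXRA (0.01, 0.93) did not pass. Without TR1 replicate 1, 2 fell.

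**Figure D3:**
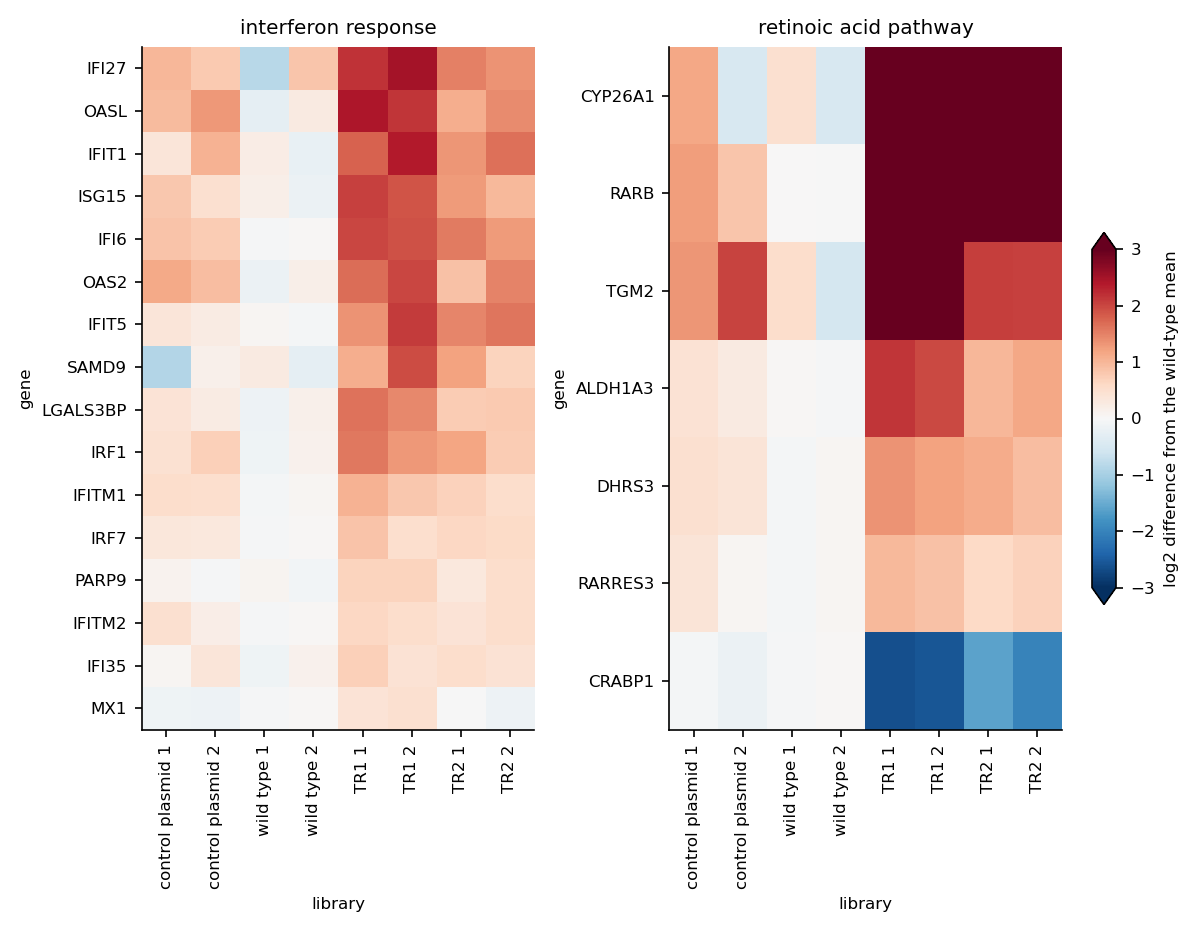
Log2 difference of each library from the wild-type mean for the members of the interferon response (left) and the retinoic acid pathway (right) that were called between TR1 and wild type, on a colour scale that ends at -3 and 3. The TR1 columns are redder than the wild-type columns for every gene of the left panel, and CRABP1 is the 1 gene of the right panel that is lower.

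Promoter sequences of these genes were read from RefSeq (GRCh38.p14), 250 bases before the start site on the strand of the gene, because RARB and CYP26A1 are textbook targets of retinoic acid receptors. The search was for direct repeats of the half-sites GTTCA and GGTCA 6 bases apart, on either strand, a choice made after the values were seen. Each gene had the repeat in 1 of its listed promoters, and the capitals mark the half-sites.
RARB, chr3:25428013-25428262, plus strand: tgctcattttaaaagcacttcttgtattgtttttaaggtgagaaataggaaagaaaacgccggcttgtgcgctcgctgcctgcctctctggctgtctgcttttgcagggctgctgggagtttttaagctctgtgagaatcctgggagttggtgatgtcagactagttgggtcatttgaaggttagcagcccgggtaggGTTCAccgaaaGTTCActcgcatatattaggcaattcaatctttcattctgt
CYP26A1, chr10:93073643-93073892, plus strand: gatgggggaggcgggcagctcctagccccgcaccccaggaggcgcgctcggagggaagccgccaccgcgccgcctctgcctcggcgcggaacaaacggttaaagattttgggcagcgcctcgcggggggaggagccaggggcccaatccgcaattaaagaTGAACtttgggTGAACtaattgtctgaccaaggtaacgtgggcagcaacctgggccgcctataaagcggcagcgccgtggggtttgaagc
The RARB repeat begins 52 bases before the start site and that of CYP26A1 90 bases before it. Among the promoters of all tested genes, 22 of 14451 (0.152%) held such a repeat, against 8 of 1268 (0.631%) for genes called higher and 1 of 1226 (0.0816%) for genes called lower. The RARB and CYP26A1 promoters that prompted the search are 2 of those 8, so that the share for genes called higher partly restates the choice. The single promoter of ALDH1A3 and the 3 of DHRS3 held none. A match is a description of letters and shows no binding.

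Words bound by GATA factors (AGATAA or AGATAG, or the same words with T as the first letter, both strands) were counted in the same windows. They stood in 15.4% of the promoters of genes called higher, in 13.3% for genes called lower and in 13.9% for all tested genes. For genes called at least 2-fold higher the share was 20.0% (89 of 446), and for those at least 2-fold lower 14.9% (40 of 269). Over all RefSeq promoters, of tested genes or not, it was 22.3% (7840 of 35116), above each of these shares. The promoter of GLYATL3, which rose 71.3-fold, held 2 such words, shown in capitals, and that of CXCL14 held 0.
GLYATL3, chr6:49499673-49499922, plus strand: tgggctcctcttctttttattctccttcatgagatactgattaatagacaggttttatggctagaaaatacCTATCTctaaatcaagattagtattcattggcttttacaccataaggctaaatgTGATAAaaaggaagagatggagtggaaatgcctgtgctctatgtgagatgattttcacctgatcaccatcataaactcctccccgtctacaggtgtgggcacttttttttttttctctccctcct
CXCL14, chr5:135578992-135579241, minus strand: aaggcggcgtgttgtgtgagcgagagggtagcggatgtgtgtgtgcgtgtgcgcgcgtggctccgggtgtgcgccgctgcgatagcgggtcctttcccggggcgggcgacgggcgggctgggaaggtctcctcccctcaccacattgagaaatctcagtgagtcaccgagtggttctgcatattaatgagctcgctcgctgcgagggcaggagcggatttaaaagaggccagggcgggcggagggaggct
These windows do not cover distal enhancers.

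Of the growth factor signalling genes that were called, most were lower. Of 17 MAPK feedback genes, 6 fell and 0 rose (35.3% lower, against 7.38% of all genes), and the median log2 fold change was -0.38. DUSP4, a phosphatase of MAP kinases, fell from 2158 and 2228 to 434 and 364 (-2.46 ± 0.10, limma adjusted p = 1.65e-06), and SPRY1, an inhibitor of receptor signalling, from 152 and 151 to 74.7 and 76.1 (2-fold lower, adjusted p = 0.00394). Of 23 immediate early genes, 8 fell and 1 rose (39.1% called), JUN from 513 and 511 to 298 and 268 (-0.86 ± 0.09, adjusted p = 0.000537) and CYR61 from 381 and 421 to 238 and 234 (-0.76 ± 0.10, adjusted p = 0.00149). EGR1 did not pass (-0.21, adjusted p = 0.8). Of 12 ERBB receptor and ligand genes, 7 fell, with ERBB2 at -0.34 (adjusted p = 0.012) and ERBB3 at -0.39 (0.02), and 2 rose, EGF and EGFR (75.0% called). Neither ERBB2 nor ERBB3 passed without wild-type replicate 1 (adjusted p = 0.0582 and 0.0947) or 2 (0.137 and 0.159). Without wild-type replicates 1 and 2, in this order, 3 and 2 MAPK feedback genes and 4 and 3 immediate early genes fell, and in the ERBB list 1 fell and 0 rose under both. The 2 ERBB rises were also lost without TR2 replicate 1 or 2.

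Of 36 cell cycle genes, 7 fell and 0 rose, by small amounts. That share of 19.4% stands against 15.0% of all genes called in either direction and 7.38% called lower. E2F1, a factor of S-phase entry, fell from 1676 and 1656 to 1258 and 1109 (-0.50 ± 0.09, limma adjusted p = 0.00619), and RRM2, a ribonucleotide reductase subunit, was lower by 0.33. Neither E2F1 nor RRM2 passed without wild-type replicate 1 (adjusted p = 0.0626 and 0.118) or 2 (0.0573 and 0.0738). MKI67 and TOP2A did not pass. The count is not stable: 0 fell without either wild-type replicate, 1 with median centring, 4 without either control replicate, 3 without either TR2 replicate and 15 without TR1 replicate 1, where 3 rose.

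Of 23 amino acid and unfolded protein stress genes, 10 rose and 2 fell (52.2% called). DDIT4, an inhibitor of mTORC1, rose from 593 and 687 to 1880.0 and 1692 (log2 fold change 1.48 ± 0.10, limma adjusted p = 3.67e-05). The transporter gene SLC7A5 rose from 12612 and 12556 to 23015 and 21358 (0.82 ± 0.06, adjusted p = 6.77e-05), and its control level of 20040.2 and 21885 was near that of TR1, so that wild type stood low. ATF4 was higher by 0.50 (adjusted p = 0.0039), and HSPA5, a chaperone gene of the unfolded protein response, did not pass (0.07, adjusted p = 0.49). Without wild-type replicate 2, 6 rose, and without either wild-type replicate 0 fell, while 4 fell without TR1 replicate 1. Of 24 sterol synthesis genes, 7 rose and 4 fell (45.8% called), and 3 rose with median centring. FDFT1, squalene synthase, fell from 7488 and 7597 to 5746 and 5190.0 (-0.47 ± 0.07, adjusted p = 0.00216). In that list 2 rose and 1 fell without wild-type replicate 1, 4 and 1 without wild-type replicate 2, and 2 fell without either TR2 replicate. Of 11 heat shock chaperone genes, 1 rose and 1 fell (18.2% called, near the 15.0% of all genes), and the counts were larger without TR1 replicate 1. These were small heat shock genes, HSPB1 rising from 13545 and 13429 to 22267 and 20714 (0.67 ± 0.06, adjusted p = 0.000251) and HSPB8 falling from 607 and 606 to 52.4 and 38.5 (-3.73 ± 0.16, adjusted p = 3e-06).

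Of 15 matrix protease and inhibitor genes tested, 4 rose and 4 fell (53.3% called), and 2 fell without either wild-type replicate. TIMP3, a matrix-bound protease inhibitor, had 0 wild-type reads and 16 in each TR1 library, at least 4.58-fold higher (limma adjusted p = 0.00237), while TIMP1 was lower (-0.98, adjusted p = 0.013) and no longer passed with wild-type replicate 1 (0.077) or 2 (0.094) left out. Among 20 integrin and laminin genes, 5 rose and 3 fell (40.0% called). The fibronectin receptor subunit gene ITGA5 rose from 549 and 609 to 1024 and 916 (0.74 ± 0.09, adjusted p = 0.000743) with control values of 1094 and 1087, and ITGA10 fell from 109 and 132 to 50.4 and 46 (-1.30 ± 0.17, adjusted p = 0.00122). Without either wild-type replicate 3 rose and 1 fell, without TR1 replicate 2 there were 6 falls, and without TR2 replicate 2 there was 1. Among 9 chemokine and cytokine genes, 4 rose and 1 fell (55.6% called), LIF from 9.63 and 10.3 to 36.8 and 38.5 (1.82 ± 0.23, adjusted p = 0.00105). CCL28 fell, and lost its call without either wild-type replicate. Without either wild-type or TR2 replicate, 2 of the list rose.

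The gap between the TR1 libraries was not spread evenly over genes. Over all genes tested, 884 stood at least 2-fold apart, 810 of them higher in TR1 library 2 and 74 higher in library 1, and 28 were called against wild type. MALAT1, an abundant nuclear noncoding RNA, had 10348 in library 1 and 36071 in library 2, on either side of wild type at 16246 and 16028. EXPH5 (115 and 412, wild type 164 and 181) and INO80D (80.5 and 289, wild type 129 and 116) did the same. Among genes with a mean of at least 100 over the TR1 libraries, those with the widest gaps toward library 1 included NDNL2 (127 and 82.8) and PECR (229.8 and 151), under 2-fold apart. Without TR1 replicate 1, MALAT1 was higher than wild type by 1.16 on the log2 scale, and without TR1 replicate 2 it was lower (-0.64).

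Across 13358 genes, the gap between the TR1 libraries correlated with the GC content of the transcript (Pearson's r = -0.533) and with log2 transcript length (0.27). For the other pairs the r with GC was 0.0961 (control), 0.112 (wild type) and -0.172 (TR2). Genes were ordered by GC content and cut into 5 groups of equal size. In the group with the lowest GC, from 29.4% to 41.0%, the median gap between the TR1 libraries was 0.55, with library 1 below wild type (-0.15) and library 2 above it (0.41). In the group with the highest GC it was -0.13. The mean difference of TR1 from wild type hardly followed GC (r = -0.0447). Of 2672 genes each, 115 were called higher and 77 lower in the group of lowest GC, and 315 and 228 in the highest. Removing a trend on length and GC gave 3259 calls among 13358 genes, 1358 higher and 1901 lower, and what set the gap between the TR1 libraries was not tested.

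**Figure D4:**
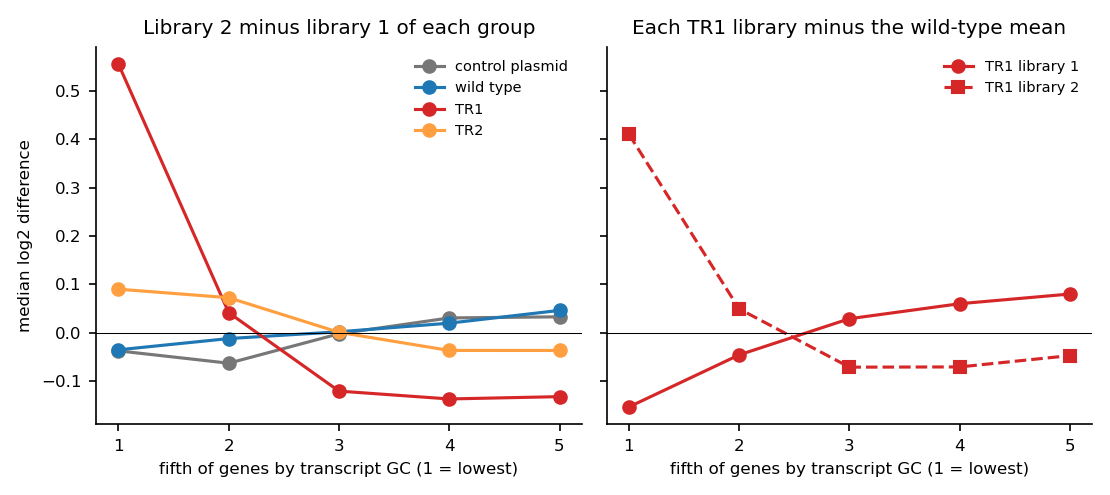
Median log2 difference in 5 equal groups of genes ordered by transcript GC content, for library 2 minus library 1 of each plasmid (left) and for each TR1 library minus the wild-type mean (right). The TR1 libraries part at the lowest GC, with a median gap of 0.55, while the medians of the other pairs stay between -0.06 and 0.09.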

How the data were processed

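Total RNA of T47D cells was sequenced in 8 libraries, 2 for each of 4 plasmids, with RNA extraction and a strand-specific library kit as given in the labels' protocols. The submitters' processing notes name hg38, HTSeq and TopHat and give no version. The strand setting, the annotation and the size factors are not given in the sources used here. The authors deposited log2 values of a normalized count plus 1 for 28859 gene symbols. Turned back to the linear scale, 100% of the values were whole multiples of 1 step per library, within 0.01 reads, which gave the reads behind each value.

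A gene was tested where 2 or more of the 8 libraries held it at 10 normalized counts or above (14881 genes). The deposited log2 values of all 8 libraries entered 1 fit in limma 3.58.1 (R 4.3.3; lmFit, the contrast TR1 minus wild type, eBayes with a trend), with group as the only term. The residual degrees of freedom were 4 and the prior ones 4.69. Two-sided p-values received a Benjamini-Hochberg adjustment over all genes tested, and adjusted values under 0.05 were called. The fit was checked on simulated data with known changes, in which all libraries had the same spread and no GC trend. The check therefore does not cover the wider spread between the TR1 libraries. Symbols were matched to GENCODE release 29 (GRCh38) for coordinates, and to GENCODE lengths and GC contents for 13358 of the genes tested (89.8%). With 0 reads in a group, the fold was set against 3 reads per library and is a lower bound. With 1 to 3 reads, the ratio carries an exact 95% binomial interval. Both cover the error of counting and no other.

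The comparison, the gene lists and the naming rule were chosen with earlier results of these data known, so that no count over a list is independent evidence. The rule names GATA3; the 12 genes that rose most and the 12 that fell most, past the threshold, with TR1 and wild-type libraries not overlapping and with a mean normalized count of at least 50 in the higher group, without clone-like or date-like names; the 4 largest rises and falls in mean level; up to 4 members per list; 8 markers; and the 8 genes with the widest gap between the TR1 libraries at a mean of at least 100. Some members of the last groups are left out, and any other gene named was chosen after its values were seen. The alternatives were other prior variances, filters, scalings, pseudocounts, weights and sets of libraries, a replicate block, and the removal of a length and GC trend. Whether the replicate numbers pair the samples is not known, and the main fit did not use them as pairs. Some members of the gene lists are not reported here by name.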

Additional observations from a re-analysis of the deposited data

How the results depend on the processing

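The number of genes called between TR1 and wild type was 2229. It was 1042 with only the TR1 and wild-type libraries in the fit and 1434 with library weights by group, and it ranged from 859 to 4754 when 1 library was left out. The other settings gave between 1744 calls (no trend in the prior variance) and 3259 (length and GC trend removed). With the replicate number as a block the count was 1780, and with the block and the length and GC trend removed 2909. The deviations of same-numbered TR1 and wild-type libraries correlated at -0.0704, and those of TR1 and TR2 libraries at 0.148. These values cannot tell whether the numbers pair the samples. Of the called genes, 50.74% were higher with TR1, 44.74% under quantile normalization and 60.42% without wild-type replicate 2. MT-ND2 reversed under quantile normalization (-0.057, adjusted p = 0.64). INO80D, EXPH5 and MALAT1, none of them called with all libraries, changed sign with the TR1 library left out: by log2 changes of 1.23, 1.25 and 1.16 they were higher without TR1 replicate 1, and by -0.60, -0.58 and -0.64 lower without TR1 replicate 2. The cause was not tested. Of 143 named genes called, 143 kept their call with a pseudocount of 10, 110 when wild-type replicate 1 was left out and 106 when replicate 2 was. With a library left out, the lone sample of that group is assumed to vary like the other groups. For TR1 the values go against that: the SD of the gap was 0.381 for its pair and between 0.116 and 0.168 for the others. Calls without a TR1 replicate therefore rest on a spread narrower than that of TR1. Genes with few reads are limited by depth, as their counting intervals show.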

Other observations

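Several gene families chosen after their values were seen held members that moved in opposite directions. In the RIM family of presynaptic scaffolds, RIMS1 and RIMS3 were lower with TR1 and RIMS2 and RIMS4 higher. RIMS3 no longer passed with wild-type replicate 1 (adjusted p = 0.109) or 2 (0.105) left out. RIMS4 was at 152 and 143 with wild type and at 817 and 719 with TR1 (log2 fold change 2.37 ± 0.11 SE, limma adjusted p = 4.87e-06). The sphingolipid desaturase gene DEGS1 rose from 882 and 875 to 2150.5 and 2009 (1.24 ± 0.07, adjusted p = 1.08e-05). Its paralog DEGS2 fell from 1262 and 1284 to 343 and 264 (-2.08 ± 0.12, adjusted p = 1.53e-05). For DEGS1 and DEGS2 the TR2 libraries lay between those of wild type and TR1. Among receptors of fibroblast growth factors, FGFR2 rose from 803 and 838 to 2272 and 1992 (1.37 ± 0.09, adjusted p = 3.17e-05), while FGFR1 (-0.44, adjusted p = 0.00933) and FGFR3 (-0.39, adjusted p = 0.0141) were lower. Neither wild-type replicate could be left out without losing 1 of these falls or both. In the Notch pathway, the ligand gene DLL1 rose from 245 and 324 to 782 and 743 (1.43 ± 0.13, adjusted p = 0.000168), near its control level of 813 and 752. LFNG, which glycosylates Notch receptors, fell from 654 and 742 to 236 and 222 (-1.60 ± 0.10, adjusted p = 1.99e-05). The receptor genes NOTCH1, NOTCH2 and NOTCH3 did not pass.

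Secreted proteins of glandular epithelium were put together because of their values, so that their rises restate the choice. Of 7 tested, 6 were called higher, against 7.60% of all genes, and SERPINA6 among them (0.25, adjusted p = 0.0327) kept its call in 9 of 21 alternatives. AZGP1, a zinc-binding glycoprotein gene, rose from 192 and 184 to 5768 and 5255 (4.87 ± 0.08, limma adjusted p = 9.18e-09), with 2269.8 and 2318 in the TR2 libraries and 275 and 261 in the control libraries. PIP, the prolactin-induced protein gene, rose from 204 and 224 to 881 and 959 (2.10 ± 0.13, adjusted p = 2.07e-05). LCN2, which binds bacterial siderophores, rose from 4.82 and 1.14 to 63 and 74.5 (4.30 ± 0.43, adjusted p = 0.0003). SULF1, an extracellular sulfatase of heparan sulfate, rose from 1909 and 2045 to 8641 and 9707 (2.21 ± 0.13, adjusted p = 1.63e-05). In the TMTC family, TMTC2 (-0.93, adjusted p = 0.00752) and TMTC4 (-0.90, adjusted p = 0.000315) were lower beside TMTC1, and TMTC2 lost its call without wild-type replicate 2 (0.0734). TMTC3 stood at 485 and 1046 in the TR1 libraries, on either side of wild type at 541 and 548.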
